A study of Mus musculus with 16 samples.

Results

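The set described here holds 8 genes for secreted Wnt proteins: Wnt2b, Wnt4, Wnt5a, Wnt5b, Wnt6, Wnt7b, Wnt9b and Wnt11. They were listed by name as the Wnt ligands of the ureteric bud and the metanephric mesenchyme, the partner tissues of the early kidney. Together they have 16 probe sets that the platform annotation assigns to a single symbol, of 45037 probe sets and 18193 named genes in the series. The array carries 19 Wnt genes in all, and the remaining 11 served as a comparison list.

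Transcripts were measured in embryonic mouse kidney of stage E11.5 on 16 Affymetrix arrays, 1 per sample, after 2 rounds of RNA amplification. The wild-type ureteric bud (UB) group has 4 arrays, each of RNA from 3 to 9 pooled buds separated by hand after collagenase at 0.5 mg/ml. The HoxA11, D11 double null metanephric mesenchyme (MM) group has 5 arrays of laser-captured tissue, cut out under the microscope from 7 µm sections of urogenital ridges. The wild-type captured MM group has 4 arrays, each pooling 3 to 4 mesenchymes from 7 µm sections of kidney rudiments. The wild-type hand-dissected MM group has 3 arrays, numbered 5 to 7 in the labels, each of an individual mesenchyme freed from its bud after the same collagenase treatment. The sources used here do not give mouse strain, sex or litter, or the number of mesenchymes behind each null array. The series text calls the replicates separate embryos, although UB and wild-type captured arrays hold pools.

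Wnt proteins are lipid-modified signals that Porcn acylates and Wls carries to the cell surface, where Frizzled receptors with Lrp5 or Lrp6 stabilize β-catenin, or Frizzled with Ror receptors acts without it. In the mouse kidney, Wnt9b from the bud is needed for the mesenchyme to form nephrons, and Wnt4, made in the induced mesenchyme, drives its change into the epithelial renal vesicle. Wnt11 is made at the bud tips and takes part in a loop with mesenchymal Gdnf and its bud receptor Ret, while Wnt7b acts later, from the collecting duct, on the medulla.

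The upstream promoter sequences of the 3 members highest in UB relative to hand-dissected MM, and of the member lowest there, are shown because these 4 genes carry the contrast between the tissues. Each covers the 250 bases before the annotated start of the gene, 5′ to 3′ on the gene's strand, from RefSeq with build GRCm38.p6. They lie at chr11:103749822-103750071 on the minus strand for Wnt9b, chr1:74771642-74771891 on the plus strand for Wnt6, chr7:98834862-98835111 on the plus strand for Wnt11 and chr4:137277385-137277634 on the plus strand for Wnt4. Capitals mark GC boxes (GGGCGG or its complement), and in Wnt11 also a TCF/LEF word (CTTTGAT, here read on the other strand) and a TATA box (TATAAA).
Wnt9b: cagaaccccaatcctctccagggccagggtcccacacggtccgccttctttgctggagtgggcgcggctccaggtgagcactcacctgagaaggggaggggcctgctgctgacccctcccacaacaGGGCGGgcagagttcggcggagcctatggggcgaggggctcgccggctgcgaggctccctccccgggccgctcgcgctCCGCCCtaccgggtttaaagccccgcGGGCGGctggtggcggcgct
Wnt6: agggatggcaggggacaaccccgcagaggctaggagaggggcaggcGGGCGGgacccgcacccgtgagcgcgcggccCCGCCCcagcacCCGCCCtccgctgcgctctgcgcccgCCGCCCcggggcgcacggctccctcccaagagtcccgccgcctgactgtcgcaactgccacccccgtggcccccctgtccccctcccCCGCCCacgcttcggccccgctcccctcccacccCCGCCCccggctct
Wnt11: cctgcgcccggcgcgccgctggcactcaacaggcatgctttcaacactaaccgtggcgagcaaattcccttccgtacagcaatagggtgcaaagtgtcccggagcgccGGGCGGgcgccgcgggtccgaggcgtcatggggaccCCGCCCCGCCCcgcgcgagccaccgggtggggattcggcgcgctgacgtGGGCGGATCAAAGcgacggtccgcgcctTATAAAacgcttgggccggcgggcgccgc
Wnt4: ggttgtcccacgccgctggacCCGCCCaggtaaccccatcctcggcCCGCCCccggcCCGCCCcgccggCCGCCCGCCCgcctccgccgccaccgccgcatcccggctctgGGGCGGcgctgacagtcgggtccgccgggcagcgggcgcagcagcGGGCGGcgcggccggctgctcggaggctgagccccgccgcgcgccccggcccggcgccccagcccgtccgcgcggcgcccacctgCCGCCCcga

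The RefSeq promoter table held 9 promoters of 6 members, in windows of 300 bases that run from 250 before to 50 after the start, and Wnt5a and Wnt7b were not among them. These windows were rich in G and C, with a median of 71.7% against 52.7% over all 32851 promoters of the same length. GC boxes, searched as GGGCGG on both strands with overlapping matches counted, were present in 8 of the 9 member promoters, against 35.7% of all promoters. Wnt4 had 8 matches, Wnt6 had 6, Wnt11 had 4 and Wnt9b had 3. Words bound by TCF/LEF factors, the DNA-binding partners of β-catenin (CTTTGAT or CTTTGTT, both strands), were found in 2 of 9 member promoters, against 9.33% of all promoters. They lay at positions -51 to -45 of the Wnt11 promoter shown above, directly after a GC box that it does not overlap, and at 1 alternative start of Wnt5b. The TATA box of Wnt11, at -29 to -24, was the only one among the 9 member promoters, against 13.6% of all promoters. A word bound by posterior Hox factors (TCGTAAA, both strands) occurred in 0 of 9 member promoters, and in 0.597% of all promoters. These matches describe letters in short windows and say nothing of binding.

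Some features of the arrays bear on the ligand values. Array medians lay between 112.7 and 209.2 signal units, and no arrays held identical values. Of 12 ureteric bud markers, 11 were measured, and 10 of these exceeded the array median on every UB array. Their summed signal was 193182 to 243923 on UB arrays, 11769 to 41438 on null captured arrays, 10369 to 60726 on wild-type captured arrays and 1693 to 2336 on hand-dissected MM arrays. The bud sum was thus higher on each of the 9 captured MM arrays than on any hand-dissected MM array. The 9 nephron progenitor markers, listed for the mesenchyme that forms nephrons, summed to 1367 to 2200 on UB arrays. Their sums were 19706 to 88914 on null captures, 36470 to 65666 on wild-type captures and 68874 to 86708 on hand-dissected MM arrays. A sum weighs its brightest markers most, and 4 to 6 of the 9 exceeded the array median on UB arrays. Of 8 tested by limma, 7 were called lower in UB than in hand-dissected MM and 1 was called higher.

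Among the null captures, replicate 5 stood apart in 6 gonad and coelomic markers, which summed to 28824 there, against 189 to 504 on the other null arrays and 290.1 to 803 on wild-type captures. Neuronal and neural crest markers, 6 of them measured, summed to 27482 on null replicate 4 and 16571 on null replicate 1. The sums were 6393.5, 2930.1 and 2581.8 on null replicates 2, 3 and 5, against 2138 to 4791 on the wild-type captures. On null arrays 4 to 6 of the 6 exceeded the array median, against 2 to 3 on wild-type captures, although array medians differ. Null replicate 1 had a median correlation of 0.896 with the other null arrays over all probe sets, and each of the others had 0.928 to 0.933. Because the tissue is bulk, fewer cells that make a transcript and less of it per cell cannot be told apart in any value below.

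The first comparison set UB against hand-dissected MM and asks which ligands belong to either tissue. Pooling differs together with tissue here, at 3 to 9 buds per UB array against individual mesenchymes, and their effects cannot be told apart. Wnt9b, Wnt6, Wnt11 and Wnt7b were higher in UB, Wnt4 was lower, and Wnt5a and Wnt5b did not pass the test. Wnt2b was too dim to be tested. In counts, 4 of the 7 tested members were higher and 1 was lower by limma at a Benjamini-Hochberg adjusted p under 0.05. Over all 12435 genes tested, 28.5% passed in either direction, 13.9% higher and 14.6% lower. The median log2 difference was 1.30 over the 7 members and 0.01 over all genes. The members were listed as ligands of these tissues with earlier results of these data known, so the shares describe them and test nothing. For 5 of the 7 members the ranges of UB and MM were apart, as for 36.4% of all genes, and the same 5 had an unadjusted p under 0.05, as did 41.2% of all genes.

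**Figure D1:**
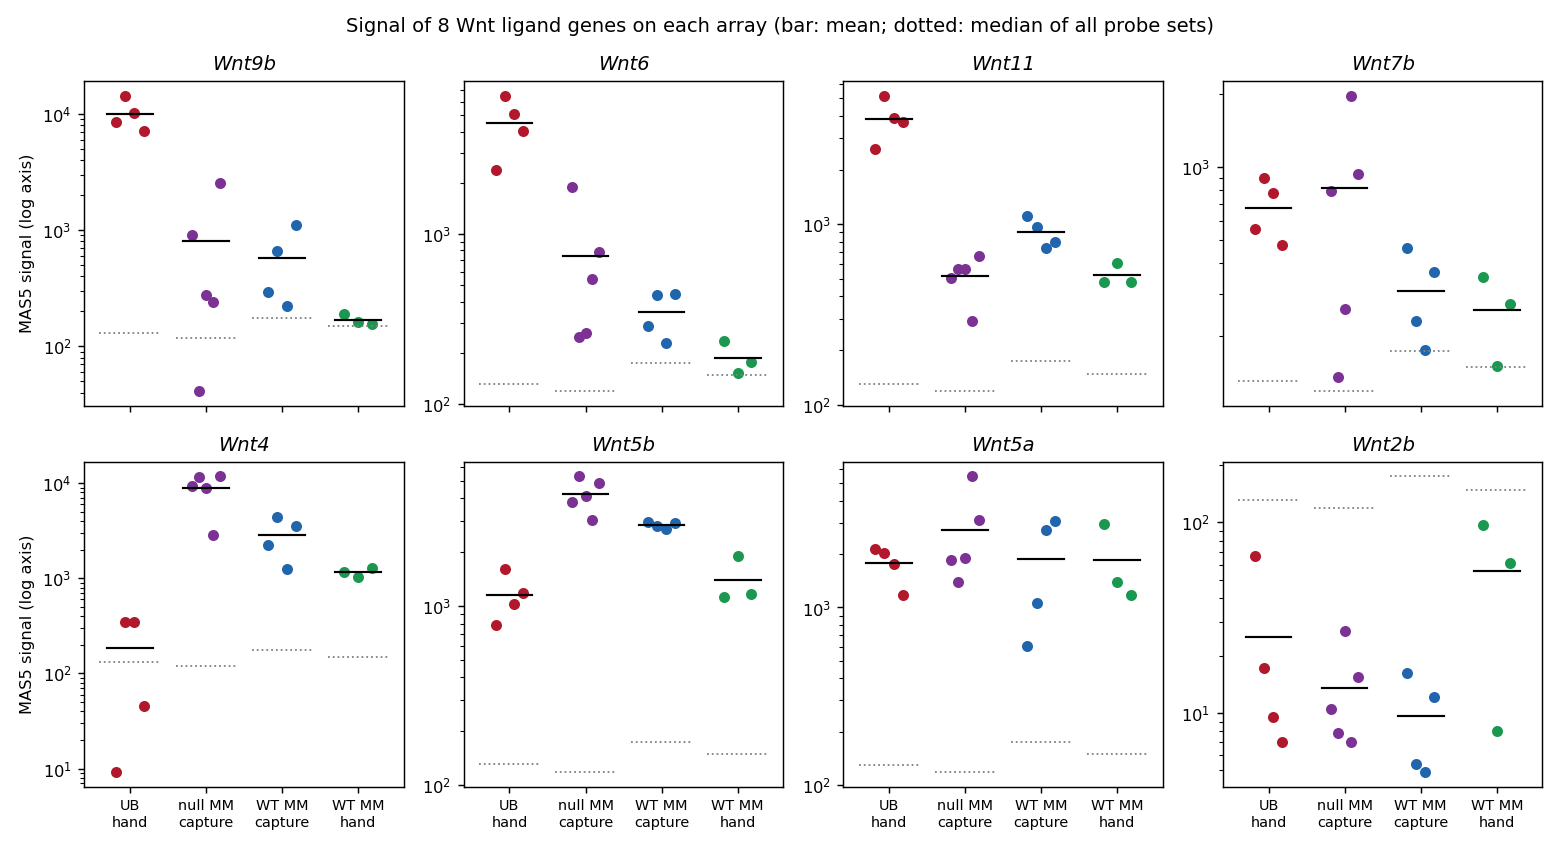
Signal of each Wnt member on all 16 arrays, in 8 panels with a logarithmic vertical axis in MAS5 signal units. Groups run from left to right as UB, null captured MM, wild-type captured MM and wild-type hand-dissected MM, each point is an array, each bar marks the group mean and the dotted line the median of all probe sets. Wnt9b, Wnt6 and Wnt11 are highest in UB without overlap, Wnt4 is lowest there, and the Wnt2b points lie below 100 throughout.

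Among the bud ligands, Wnt9b had signals of 8498, 14272, 10144 and 7097 on the UB arrays, against 189, 161 and 155 on the hand-dissected MM arrays. Every UB array was thus far above every MM array, and the mean in UB was 59.4-fold that in MM. The log2 difference was 5.57 ± 0.26 (SE; limma adjusted p = 4.31e-08). Captured MM lay between, at 914, 40.9, 274, 239 and 2523 on the null arrays and 292, 656, 221 and 1109.7 on the wild-type arrays. In the order of the groups, UB was highest, the null and wild-type captures overlapped, and the hand-dissected arrays lay below all wild-type captures but inside the range of the null ones. The other Wnt9b probe set was below the array median on all 16 arrays and was not tested.

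Wnt6, a bud ligand able to induce tubules in mouse mesenchyme in culture, had 2395, 6505, 5056 and 4033 on the UB arrays, against 235, 152 and 176 on the hand-dissected MM arrays. The groups did not overlap. The UB mean was 24.0-fold that of MM, with a log2 difference of 4.27 ± 0.32 (SE; limma adjusted p = 1.68e-06). Its other probe set differed by 4.10 ± 0.30 (SE; limma adjusted p = 1.43e-06). Captured arrays had 1895, 248.5, 262, 546 and 779 in null MM and 289, 436, 227 and 445 in wild-type MM. All 9 were below the lowest UB array, the captured groups overlapped each other, and the wild-type captures overlapped hand-dissected MM at their low end.

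Wnt11 had 2597, 5143, 3863 and 3700.1 on the UB arrays, against 477, 608 and 479 on the hand-dissected MM arrays. UB was higher on every array, by 7.33-fold in the mean and 2.76 ± 0.25 on the log2 scale (SE; limma adjusted p = 9.58e-06). Its other values were 501, 566, 566, 293 and 667 in null captures and 1106, 970.2, 738 and 795 in wild-type captures. Hand-dissected MM overlapped the null captures but not the wild-type ones, and UB lay above all. This gene has a single probe set on the array.

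Wnt7b had 552.5, 899.8, 782 and 476 on the UB arrays, against 351, 151 and 271 on the hand-dissected MM arrays. The groups did not overlap, but the gap was small beside those of the other bud ligands on the log2 scale, at 1.30 ± 0.31 (SE; limma adjusted p = 0.00939). When all 16 arrays shared a single fit, its adjusted p was 0.186 and the call was lost. The highest Wnt7b signals of the series were not in bud: 1961 on null replicate 4 and 937 on null replicate 5, with 792, 136 and 259 on the remaining null arrays, against 461, 231, 175 and 367 on the wild-type captures. The null range therefore covered those of every other group, while UB lay just above the wild-type captures. Its other probe set was below the median on every array.

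**Figure D2:**
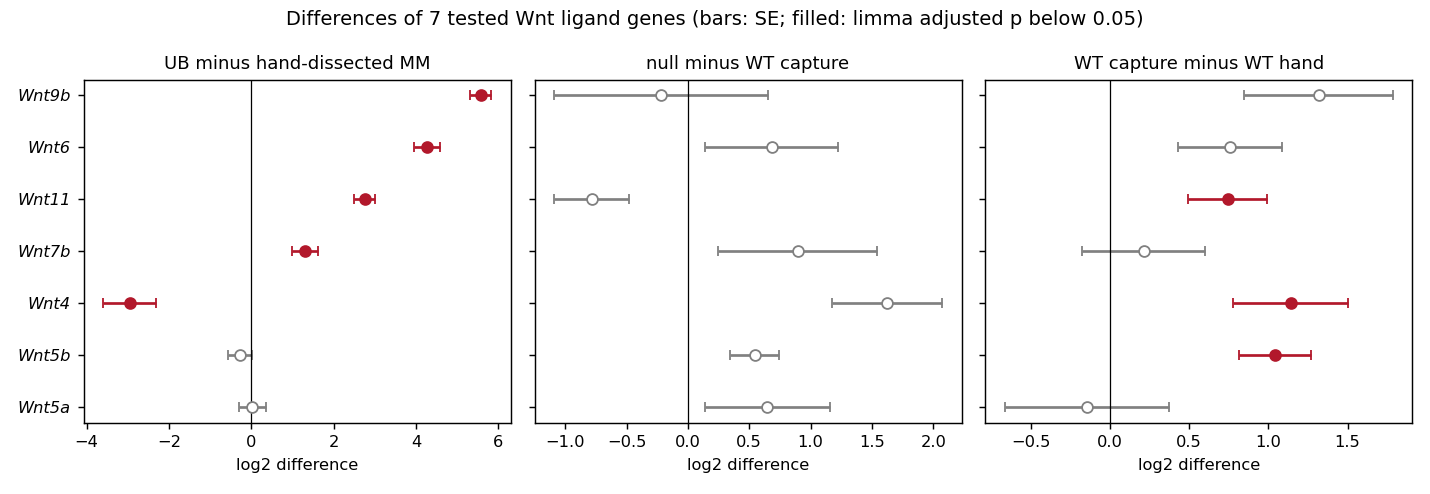
Log2 difference with its standard error for the 7 tested members, in 3 panels for UB minus hand-dissected MM, null minus wild-type captured MM, and captured minus hand-dissected wild-type MM. Each panel has its own horizontal scale. Filled points passed limma at an adjusted p under 0.05. Wnt9b has the largest difference in the bud panel, at 5.57, and no point in the null panel is filled.

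Wnt4 was the member that was higher in mesenchyme. Its signals were 9.2, 347, 345 and 45.8 on the UB arrays, against 1155, 1025 and 1282 on the hand-dissected MM arrays. The highest UB array was below the lowest MM array, and UB was 6.18-fold lower in the mean. The log2 difference was -2.95 ± 0.65 (SE; limma adjusted p = 0.00593). The UB arrays themselves fell into a pair near 350 units and a pair below 50, so the size of this difference rests on dim values. Its other probe set read 126, 282, 126 and 144 on the UB arrays, against 593, 457 and 541.5 on the hand-dissected MM arrays, and differed by -1.52 ± 0.29 (SE; limma adjusted p = 0.00244). Both probe sets placed the 4 groups in the same order by their medians: null captures, wild-type captures, hand-dissected MM and UB.

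Wnt5b had 786, 1613, 1026 and 1185 on the UB arrays, against 1124.5, 1915 and 1175 on the hand-dissected MM arrays, and the ranges overlapped. The log2 difference was -0.28 ± 0.29 (SE; limma adjusted p = 0.517), and 0.11 at its other probe set. Against the 4 wild-type captured arrays in place of the hand-dissected ones, the same UB arrays gave -1.32 (limma adjusted p = 0.000611). Its call in this contrast thus depended on which mesenchyme was set against the bud.

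Wnt5a, which signals through Ror2 without β-catenin, had 2128, 2032, 1752 and 1172 on the UB arrays, against 2967.5, 1395 and 1181 on the hand-dissected MM arrays. The difference was 0.02 ± 0.33 on the log2 scale (SE; limma adjusted p = 0.970). All 4 groups overlapped for this gene, with group medians of 1892 in UB, 1905 in null captures, 1894 in wild-type captures and 1395 in hand-dissected MM. Its 3 other probe sets had lower signals, and none of the tested ones was called in any comparison.

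Wnt2b, known in mouse kidney from the stroma, was dim everywhere. Its single probe set had 66.8, 17.3, 9.5 and 7.0 on the UB arrays, 10.5, 7.8, 26.9, 7.0 and 15.4 on the null captures, 16.3, 5.4, 4.9 and 12.1 on the wild-type captures, and 96.7, 8.0 and 61.4 on the hand-dissected MM arrays. All 16 values were below the array medians, so no difference could be measured at this signal.

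The other 11 Wnt genes added 1 call in the same comparison. Only 3 of them were bright enough to test, and Wnt10a, the gene next to Wnt6 on chromosome 1, was higher in UB. It had 185, 273, 219 and 183 on the UB arrays, against 102, 61.4 and 17.7 on the hand-dissected MM arrays, a log2 difference of 1.47 ± 0.35 (SE; limma adjusted p = 0.00962). Against the 4 wild-type captured arrays the difference was 0.52 (limma adjusted p = 0.397), and the call was lost in 3 of 18 alternatives. Wnt3, the neighbour of Wnt9b on chromosome 11, was below the array median on all 16 arrays.

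The machinery that receives and limits these ligands was split between the tissues. Of 13 tested Frizzled and co-receptor genes, 4 were higher and 5 lower in UB than in hand-dissected MM, with a list median log2 difference of -0.31 against 0.01 over all genes. Fzd6 (2.52 ± 0.25), Fzd8 (2.40 ± 0.28) and Fzd5 (1.77 ± 0.28) were higher in bud. Fzd1 (-2.38 ± 0.24), Ror1 (-1.97 ± 0.22) and Ror2 (-1.94 ± 0.37), the last a Wnt5a receptor, were lower there. Of 6 tested genes of ligand processing and release, Porcn (1.65 ± 0.30) and Wls (1.29 ± 0.27) were higher in UB and none was lower. Each value in parentheses, here and down to the Ret loop below, is a log2 difference with its SE, and the limma adjusted p of the genes called higher or lower there was 0.0114 or less. The list counts over the same passage stand beside 13.9% of all 12435 tested genes called higher and 14.6% called lower.

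R-spondins, secreted amplifiers of Wnt signals, and their receptors divided evenly among the 8 tested, with 3 higher and 3 lower. Rspo3 (-6.21 ± 0.40), Rspo1 (-3.53 ± 0.29) and the receptor Lgr6 (-1.86 ± 0.42) were lower in UB; the Lgr6 call was lost without hand-dissected replicate 7, at -1.58 (adjusted p = 0.0502), and in a single fit of all arrays (0.0977). Rnf43 (4.79 ± 0.30) and Znrf3 (0.91 ± 0.22), ubiquitin ligases that remove Frizzled and are themselves inhibited through R-spondins, and Lgr5 (1.45 ± 0.34) were higher. The Znrf3 call was lost at its second probe set, at 0.88 (adjusted p = 0.244), and in the single fit. Of 8 tested secreted antagonists, Sostdc1 (6.34 ± 0.26) and Dkk1 (2.56 ± 0.33) were higher in UB, and Frzb (-4.16 ± 0.60), Sfrp2 (-2.09 ± 0.16) and Sfrp1 (-1.80 ± 0.34) were lower. Rspo3 in UB, at 50.4 ± 52.9 (SD, n = 4), and Sostdc1 in hand-dissected MM, at 2.6 to 6.6, were near background, so the sizes of these differences rest on the offset. At their second probe sets they were -2.51 for Rspo3 and 3.19 for Sostdc1. Rnf43 (4.2 to 10.1) and Lgr5 (45.0 to 95.7) in hand-dissected MM were below the array median on every array of that group. So were Rspo1 (13.4 to 53.2) and Lgr6 (9.8 to 108.9) in UB, where Frzb read 14.8 to 251.6. The sizes of the differences of these 5 genes rest on the offset too. Against the 4 captured arrays Dkk1 was 0.89 and lost its call (limma adjusted p = 0.0649), and Sfrp1 lost its call in the single fit (0.0628) and was -0.85 at its second probe set. Thus the R-spondin ligands and the Frizzled-related antagonists called here had their higher signals in mesenchyme, and the ubiquitin ligases in bud. Rspo2 and Sfrp4, tested but not called, did not share this. Rspo2 averaged 644 in UB and 623 in hand-dissected MM, and Sfrp4 read 165.5 to 178.2 in UB against 19.8 to 143.9 in hand-dissected MM.

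Downstream of the receptors, 6 of 12 tested β-catenin feedback targets were higher in UB and 1 was lower, with a list median log2 difference of 0.82. Tnfrsf19 (3.11 ± 0.32), Ccnd1 (1.68 ± 0.16) and Axin2 (1.07 ± 0.21) were higher, and Nkd1 (-1.41 ± 0.27) was lower. The 6 also hold Rnf43, Lgr5 and Znrf3, already counted in the R-spondin list, so these list counts overlap. At second probe sets Nkd1 was -0.54 and lost its call (limma adjusted p = 0.164), and Tnfrsf19 was 1.17. Of 15 tested transduction genes 0 were higher and 4 were lower, against 13.9% and 14.6% of all genes tested. Among the lower were Tcf7l2 (-1.91 ± 0.27), Pygo1 (-1.29 ± 0.21) and Gsk3b (-1.08 ± 0.20). Against the 4 wild-type captured arrays the Gsk3b difference was 0.53, so its direction depends on the mesenchyme used. Pygo1 was -0.23 against those arrays and lost its call (limma adjusted p = 0.735), as it did in 3 of 18 alternatives, and Tcf7l2 was -1.19. Lef1 did not pass, at 0.52 ± 0.25 (limma adjusted p = 0.150). Of 15 tested genes of planar polarity and signalling without β-catenin, 4 were higher and 6 lower. Celsr1 (1.94 ± 0.28) and Scrib (1.19 ± 0.25) joined Fzd6 among the higher ones, although Scrib gave -0.10 against the captured arrays. Dact1 (-4.40 ± 0.28) and Dact3 (-2.46 ± 0.22) led the lower ones. Fzd6, Ror1 and Ror2 were already counted in the Frizzled list.

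Genes of renal vesicle induction, the step for which Wnt4 is needed, were not uniformly mesenchymal: 5 of 11 tested were higher and 5 lower in UB. Pou3f3 (6.64 ± 0.20), Lhx1 (6.40 ± 0.34) and the Notch ligand Jag1 (2.18 ± 0.32) were higher in UB. So was Ccnd1, already counted among the feedback targets. Cdh6 (-4.21 ± 0.42), Hey1 (-2.77 ± 0.36) and Bmp2 (-2.64 ± 0.34) were lower. In the Gdnf and Ret loop in which Wnt11 takes part, Ret (6.85 ± 0.20), Etv4 (2.88 ± 0.43) and Spry1 (2.31 ± 0.18) were among 5 of 6 genes higher in UB. Gdnf itself was lower (-6.13 ± 0.43). Against the 4 wild-type captured arrays, Pou3f3, Lhx1, Jag1, Ret and Etv4 kept their calls with differences smaller by over 1.5 times, at 3.42 for Pou3f3, 1.27 for Jag1 and 1.62 for Etv4. At second probe sets Lhx1 was 2.97 and Ret 3.26. On the arrays where Wnt9b, Wnt6 and Wnt11 were high, Ret was high and Gdnf low.

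**Figure D3:**
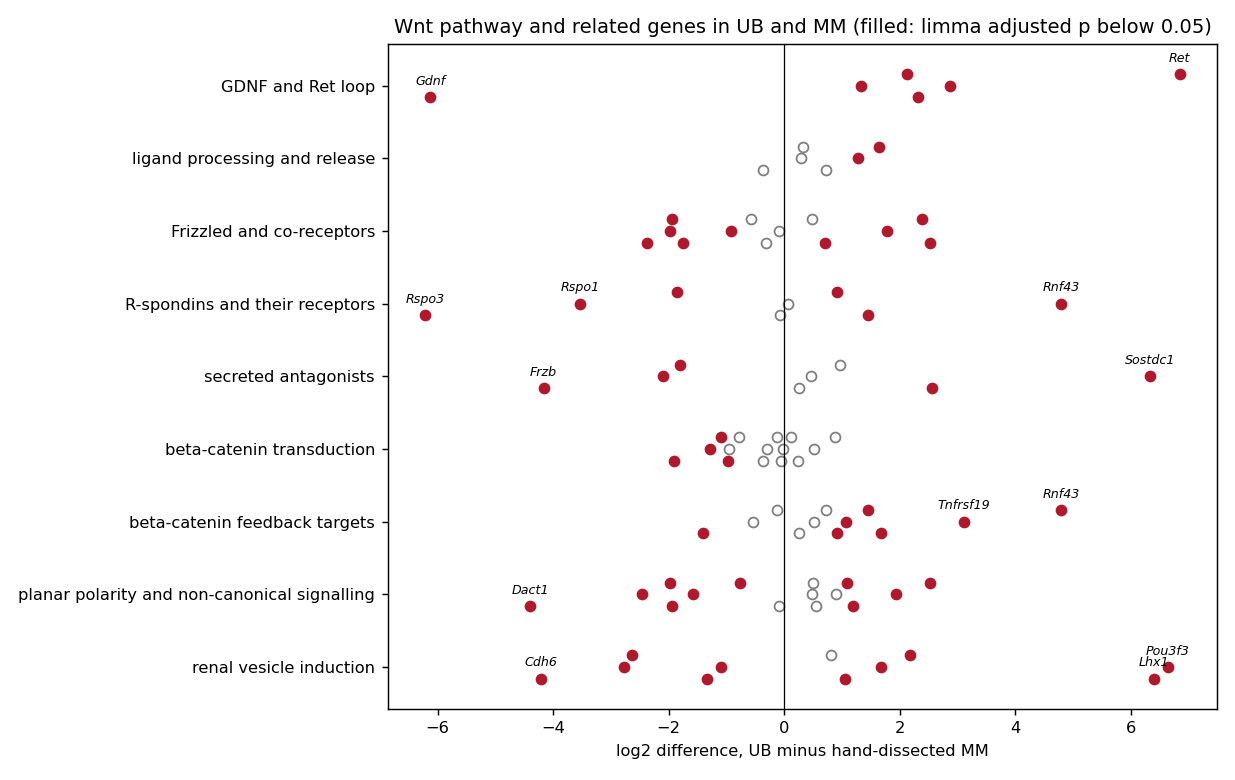
Log2 difference of UB minus hand-dissected MM for each tested gene of 9 lists related to Wnt signalling, 1 row per list, with a gene of several lists drawn in each and genes that passed limma at an adjusted p under 0.05 drawn filled. Most lists span both sides of 0, with Rspo3 at -6.21 and Sostdc1 at 6.34, each resting on a group near background. The β-catenin transduction list has 0 filled points on the side higher in UB, where 13.9% of all genes tested were called.

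The second comparison set the null captures against the wild-type captures, which bears on the study's search for Hox targets. Hoxa11 averaged 124 ± 44.5 on null arrays and 709 ± 147 on wild-type arrays (SD, n = 5 and 4), a log2 difference of -2.23 ± 0.34 (SE; limma adjusted p = 0.0114). Hoxd11 averaged 341 ± 121 and 435 ± 115 on the same groups and did not differ by the test (-0.35 ± 0.35; limma adjusted p = 0.635). The sources used here do not say whether the Hoxd11 probe set lies in the targeted region. The source piece differs together with genotype between these groups, and their effects cannot be told apart. The number of pooled mesenchymes is known for the wild-type captures alone.

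Of the 7 tested members, 0 passed limma at an adjusted p under 0.05, against 1.74% of the 12161 genes tested. That background is itself unstable: over all probe sets 411 were called, and 60 to 1809 on leaving out single arrays, with 1809 without null replicate 1 and 60 to 78 without any 1 of the wild-type captures. At an unadjusted p under 0.05 there were 3 members, Wnt4, Wnt5b and Wnt11, against 19.1% of all genes. For 2 of the 7, Wnt5b and Wnt11, the ranges were apart, as for 9.03% of all genes. The members' median log2 difference was 0.65, and that of all genes was -0.10.

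Wnt4 had the lowest p of the set. It read 9462, 11538, 8900.3, 2869 and 11815 on null arrays, against 2249, 4367, 1266 and 3518 on wild-type captures. Of the null arrays, 4 were above every wild-type array, and replicate 4 was inside the wild-type range. The null mean was 3.13-fold the wild-type mean, and the log2 difference was 1.62 ± 0.45 (SE; limma adjusted p = 0.0923, unadjusted 0.00377). Without null replicate 4 it was 1.99, with an adjusted p of 0.0230, the only one of 20 alternative settings to pass; over all 20 the difference ran from 1.29 to 2.02.

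The other Wnt4 probe set gave the same ordering: 3301, 5637, 7054, 1102.5 and 7836 on null arrays, against 918, 1193.5, 746 and 1125 on wild-type captures. Again replicate 4 alone of the null arrays fell among the wild-type values. The difference there was 2.02 ± 0.50 (SE; limma adjusted p = 0.0671). Null replicate 4 also had the lowest nephron progenitor marker sum of the 9 captured arrays, 19706, and the highest neuronal sum, 27482, and the part of either in its Wnt4 value was not tested. Null replicates 2 and 3 had the highest nephron progenitor sums, 84506 and 88914, against 36470 to 65666 on the wild-type captures, while null replicate 5, with 42076, had the highest Wnt4 signal. Without null replicate 5, whose gonad markers were high, the Wnt4 difference was 1.48 (limma adjusted p = 0.145).

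Wnt5b had 3847, 5314, 4128, 3033 and 4905 on null arrays, against 2958, 2807, 2713 and 2918 on wild-type captures. The null arrays were all above the wild-type ones, by 1.49-fold in the mean and 0.54 ± 0.20 on the log2 scale (SE; limma adjusted p = 0.170). At its other probe set the difference was 0.46 ± 0.27 and the groups overlapped (limma adjusted p = 0.394). Wnt11 was the member with lower null values: its 5 null arrays, given above, lay between 293 and 667, against 738 to 1106 on the wild-type captures. The log2 difference was -0.79 ± 0.31 (SE; limma adjusted p = 0.199), and it was -0.48 when each array was centred on its own median.

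For the remaining members the null arrays spread widely and overlapped the wild-type captures. Wnt9b differed by -0.22 ± 0.87 (SE; limma adjusted p = 0.916), with null arrays from 40.9 to 2523 that enclosed the whole wild-type range. Wnt6 differed by 0.68 ± 0.54 (0.534), Wnt7b by 0.89 ± 0.65 (0.492) and Wnt5a by 0.65 ± 0.51 (0.532), where each number in parentheses is the limma adjusted p. The highest array was not the same for these genes: null replicate 5 for Wnt9b, replicate 1 for Wnt6, and replicate 4 for Wnt7b and Wnt5a. Null replicate 4, with the high neuronal sum, had 5469 for Wnt5a and 1961 for Wnt7b; null replicate 5, with the high gonad sum and the highest bud sum of the null group, had 2523 for Wnt9b. The part of those marker lists in these values was not tested.

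Around the ligands, 1 of 9 tested secreted antagonists passed in the null comparison. So did 1 of 6 tested R-spondins and their receptors and 2 of 11 tested renal vesicle genes. Over all genes tested, 1.74% passed. The lists were chosen with earlier results of these data known, so these shares test nothing. Frzb, a secreted Frizzled-related antagonist, averaged 10833 ± 2418 on null arrays and 1821 ± 559.7 on wild-type captures (SD, n = 5 and 4), a log2 difference of 2.56 ± 0.24 (SE; limma adjusted p = 0.000584). It lost its call in 1 of 20 alternatives, at its second probe set (1.89; limma adjusted p = 0.0754). Rspo3 was lower in null MM, at 2299 ± 684 against 5093 ± 924 (log2 difference -1.17 ± 0.25; limma adjusted p = 0.0440). In the renal vesicle list, Dll1, a Notch ligand (2.32 ± 0.28; adjusted p = 0.00407), and Hey1, a Notch target (1.03 ± 0.22; adjusted p = 0.0436), were higher, also by limma. Leaving out any 1 of the 9 arrays kept Frzb and Dll1 past the threshold, while Rspo3 and Hey1 each stayed past it in 1 of 9 such fits, that without null replicate 1. Marker lists of other cells differed on the same arrays. Macrophage markers had a median log2 difference of -2.28, with 1 of 5 tested called lower, and summed to 1347 to 12191 on null arrays, against 9547 to 19766 on wild-type captures. Neuronal and neural crest markers had a median of 1.64, with 1 of 4 tested called higher. The part of these lists in the gene differences was not tested.

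All other tested genes of the lists missed the threshold. That held for 15 Frizzled and co-receptor genes, 6 of ligand processing and release, 15 of β-catenin transduction, 10 feedback targets, 17 of planar polarity and 6 of the Gdnf and Ret loop, with 0 called in each by limma. At an unadjusted p under 0.05 these lists had 3, 2, 1, 1, 1 and 0 genes, in the same order. Over all genes tested, 1.74% were called by limma and 19.1% had an unadjusted p under 0.05. Axin2 differed by 0.24 ± 0.36 (limma adjusted p = 0.765), Lef1 by 0.24 ± 0.25 (0.640), Fzd8 by 0.51 ± 0.27 (0.339) and Porcn by 0.68 ± 0.28 (0.215). Wls differed by -0.51 ± 0.36 (0.468), Ret by -0.55 ± 0.72 (0.721) and Gdnf by 0.32 ± 0.61 (0.814). The null Gdnf signal averaged 16608.5 ± 12321 (SD, n = 5), so its spread was close to its mean.

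**Figure D4:**
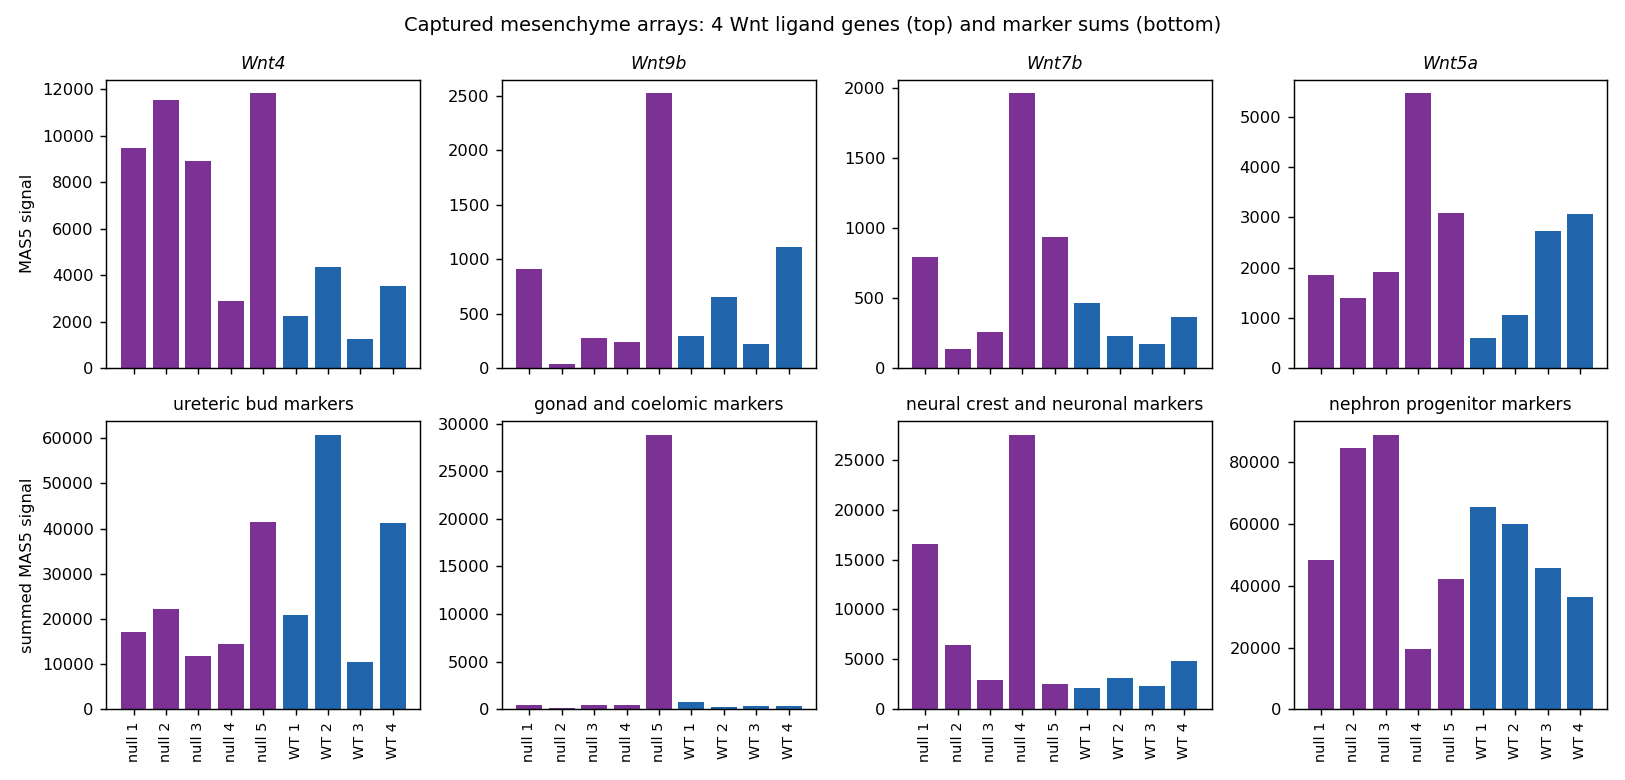
Bars, each starting at 0, of the signals of Wnt4, Wnt9b, Wnt7b and Wnt5a and of the summed signals of 4 marker lists on each of the 5 null and then the 4 wild-type captured MM arrays, in MAS5 signal units. The Wnt4 bar of null replicate 4 (2869) is the shortest of the null group, where the neuronal sum is tallest (27482), and the gonad sum is tall on null replicate 5 alone (28824).

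The third comparison, wild-type MM by laser capture against hand dissection, shares its arrays with the other comparisons. Isolation and pooling differ together between these groups and cannot be told apart. Of the 7 tested members, 3 were higher in the captures by limma, Wnt5b, Wnt4 and Wnt11, and 0 were lower, against 23.5% of 12172 genes called in either direction, 13.6% higher and 9.88% lower. An unadjusted p under 0.05 was found for 5 members, against 37.1% of all genes, and ranges that were apart for 3, against 34.1% of all genes. The median log2 difference was 0.76 over the members and 0.08 over all genes.

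For Wnt5b, 2958, 2807, 2713 and 2918 on the captured arrays stood against 1124.5, 1915 and 1175 on the hand-dissected ones, with no overlap. The captured mean was 2.03-fold higher, and the log2 difference was 1.04 ± 0.23 (SE; limma adjusted p = 0.00795) and 1.01 at the other probe set (adjusted p = 0.0151). It kept its call without any 1 of the 7 arrays. Wnt4 was higher by 1.14 ± 0.36 (limma adjusted p = 0.0392), and its captured value of 1266 on replicate 3 fell inside the hand-dissected range. Wnt11 was higher by 0.74 ± 0.25 (limma adjusted p = 0.0490) with no overlap. Both calls were lost on leaving out any array other than captured replicate 3: the adjusted p of Wnt4 was then 0.0559 to 0.107, and without captured replicate 3 it was 0.00436. For Wnt11 the range over the 7 fits was 0.0431 to 0.150.

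Wnt9b (1.32 ± 0.47; limma adjusted p = 0.0604), Wnt6 (0.76 ± 0.33; 0.116), Wnt7b (0.21 ± 0.39; 0.724) and Wnt5a (-0.15 ± 0.52; 0.861) did not pass. For Wnt9b, all 4 captured arrays were above all 3 hand-dissected ones. Without captured replicate 3 its difference was 1.65 (adjusted p = 0.0197), and without captured replicate 1 it was 1.53 (adjusted p = 0.0480). Of the ureteric bud markers, 10 of 10 tested were higher in the captures, with a median log2 difference of 3.18. Among the 4 captured arrays the bud sums were 20812, 60726, 10369 and 41209. Captured replicate 3, with the lowest bud sum, was also the lowest of the 4 for Wnt9b, Wnt6, Wnt11, Wnt7b, Wnt4 and Wnt5b. The order did not follow the bud sum otherwise. Captured replicate 1, with the next lowest sum, was the highest of the 4 for Wnt11, Wnt7b and Wnt5b. Captured replicate 2, with the highest sum, was the highest for Wnt4 alone of these genes. At the other Wnt5b probe set captured replicate 1 was the lowest, at 739. Erythroid markers, 3 of 6 tested, and macrophage markers, 2 of 5 tested, were higher in the captures as well. The part of these markers in the ligand differences was not tested.

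Around the ligands, the captures had higher Ror2 (1.05 ± 0.27; limma adjusted p = 0.0172), Dkk1 (1.67 ± 0.34; 0.00550) and Tnfrsf19 (1.00 ± 0.32; 0.0423), and lower Lrp6 (-0.82 ± 0.20; 0.0124) and Sfrp2 (-0.70 ± 0.23; 0.0491). Ret, the bud receptor, was higher by 3.12 ± 0.66 (0.00709), as were the renal vesicle genes Pou3f3 (3.22 ± 0.46; 0.00124), Lhx1 (2.51 ± 0.51; 0.00551) and Tafa5 (1.24 ± 0.38; 0.0350). Those 3 and Bmp2 made 4 of 10 tested genes of that list, and Pou3f3, Lhx1 and Ret were also higher in UB than in hand-dissected MM, with which this comparison shares arrays. Of 14 tested Frizzled and co-receptor genes 1 was higher and 1 lower, and of 7 tested antagonists 1 and 1. Of 10 tested feedback targets 1 was higher and 0 lower, as of 6 tested genes of the Gdnf and Ret loop. In the transduction list 3 of 15 tested were higher and 5 lower. These counts stand beside 13.6% of all genes tested called higher and 9.88% called lower. Dvl1 (0.63 ± 0.18; 0.0288) and Ctnnb1, which encodes β-catenin (0.33 ± 0.11; 0.0419), were higher. Without single arrays Dvl1 passed in 2 of 7 fits and Ctnnb1 in 1 of 7, and Ctnnb1 was -0.0711 after quantile normalization. Tcf7l1 (-0.99 ± 0.22; 0.00814) and Apc (-0.97 ± 0.19; 0.00425) were lower, but their second probe sets did not pass, at 0.15 and -0.31. Gsk3b (-1.61 ± 0.20; 0.000621) and Bcl9 (1.79 ± 0.30; 0.00235) each had another probe set called in the opposite direction, so no direction can be given for either. Without single arrays Tnfrsf19 and Tafa5 passed in 1 of 7 fits, that without captured replicate 3, Sfrp2 in those without captured replicates 3 and 4, and Ror2 in all but that without hand-dissected replicate 5. Of 17 planar polarity genes tested, 2 were higher, Ror2 and Scrib (1.29 ± 0.25; 0.00420), and 3 lower, Celsr2 (-1.25 ± 0.25; 0.00512), Vangl2 (-0.97 ± 0.18; 0.00342) and Dact3 (-0.69 ± 0.21; 0.0350). Dact3 passed in 2 of 7 fits without single arrays, and the second probe set of Vangl2 gave -0.00863 and did not pass. None of the processing genes or R-spondins passed, with 0 of 6 tested called by limma in each list and 0 and 2 at an unadjusted p under 0.05.

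The genes whose level over the 16 arrays ran most like each member's were found by Pearson correlation of log2 values among 12987 genes. The arrays fall into 4 groups and share their scaling, so these are descriptions without a test. Wnt9b was most like Dsg2, a desmosomal cadherin (r = 0.98, Spearman's rho = 0.95), Itpr3 (0.96) and Lad1 (0.96). Wnt6 was most like Rhpn2 (r = 0.97, rho = 0.93), the keratin Krt7 (0.96) and Bcar3 (0.96), and Wnt11 most like Ptpn3 (r = 0.97, rho = 0.89), Mal2 (0.96) and Grb7 (0.96). Each of these 3 bud ligands had a different set of nearest genes.

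Wnt4 was most like Mmp2, a matrix metalloproteinase (r = 0.94, rho = 0.81), St3gal2 (0.94) and Ror2 (0.94, rho = 0.94). For Wnt5b the nearest were Atraid (r = 0.95, rho = 0.95), 2810410L24Rik (0.95) and the ephrin Efnb1 (0.95). Likeness was lower for Wnt7b, with Rab33a (r = 0.84, rho = 0.82), Adgrg1 (0.82) and Tmem178 (0.81), and for Wnt5a, with Smoc2 (r = 0.76, rho = 0.68), Fzd10os (0.75) and Mycl (0.74). Wnt2b, dim on all arrays, had Zzz3 (r = 0.87, rho = 0.69), Trp53bp2 (0.86) and Zc3hav1l (0.85), and its order rests on signals below the array medians.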

How the data were processed

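The deposited values are linear array intensities, MAS5 signals per the submitters' processing notes, with the version not given in the sources used. As deposited by the authors, all intensities had been scaled so that the trimmed mean of every array is 1500, which was read from the values and assumes equal total expression in each sample. Amplification in 2 rounds, per the labels' protocols, favours the 3′ end of transcripts, so probe sets of a gene can differ. Arrays give no read depth, and their number limits the precision.

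After removal of 64 control probe sets, signals were converted to log2(signal + 36.3), the offset being the 25th percentile of all values, which understates differences of dim genes. A probe set was tested when its signals above the array medians were no fewer than the arrays of the smaller group. The test was limma 3.58.1 under R 4.3.3 (lmFit, eBayes with intensity trend), each comparison on its own arrays, with Benjamini-Hochberg adjustment over all tested probe sets and a threshold of 0.05. SE is limma's moderated one and SD the spread between arrays. Each gene was read through its single-symbol probe set with the highest mean log2 value, and its other probe sets were checked. Of 45037 probe sets, 34945 had 1 symbol, 932 several and 9160 none in the platform annotation, and the GRCm38.p6 gene table changed 0 symbols. Tables and figures were made with Python 3.11.15, pandas 2.3.3, numpy 2.4.6 and matplotlib 3.10.9.

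The members and the gene lists were chosen with earlier results of these data known. All members are named, with the 3 genes most like each, Gdnf, Ret, Wls, Porcn, Lef1, Axin2 and Fzd8, and from each list up to 3 genes with the largest increase and decrease among those called. The exceptions, named after their values were seen, are Rspo2 and Sfrp4 in the bud comparison, Bmp2 in the captured comparison, Wnt3 as a neighbour, and Wnt7a, Wnt9a and Wnt2. Alternatives were other offsets and a floor, no filter, quantile normalization, median centring, a single fit of all arrays, array weights, no intensity trend, other mesenchyme arrays, the second brightest probe set, leaving out each array and, for the null comparison, the replicate number as a block. On simulated data with 100 probe sets changed by 2 on the log2 scale, limma called 77 of them in the bud comparison, 82 in the null comparison and 79 in the capture comparison, and 35, 41 and 44 of 100 changed by 1. All simulated arrays took the spread of the reference group alone. The null captures varied more than their wild-type reference, with a lowest correlation within the group of 0.884 against 0.950. The counts for the null comparison can therefore be too high for the real arrays. Far fewer probe sets were changed in the simulation than the 5701 and 5866 called in the bud and capture data. Adjustment is stricter when fewer change, so the simulated counts do not give detection rates for those comparisons. Replicate numbers of null and wild-type captures coincide for 1 to 4, but the deviations of same-numbered arrays correlated by -0.05 to 0.07, so the numbers were not taken as pairs. No batch was tested, because the sources used here name no slide or scan date.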

Additional observations from a re-analysis of the deposited data

Results flagged for a closer look

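Wnt4 on null captured replicate 4 was the lowest array of its group by a gap that is large beside the group's range: 2869.1 signal units, against 9462, 11538, 8900.3 and 11815 on the other null arrays, a gap of 0.799 of the range on the log2 scale. The critical value for 5 arrays is 0.71. Chance gives such a gap in about 1 of 20 groups, and 1 was found among 24 groups of 4 or 5 arrays. The other Wnt4 probe set was also lowest there, at 1102.5.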

How the results depend on the processing

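In the bud comparison 5 members were called in the main setting and 4 to 6 in 18 of 19 alternatives. With the second brightest probe set 3 of 5 tested were called. These were Wnt6 and Wnt4 through a second probe set, and Wnt11 again through its only one, which adds no check. Leaving out arrays gave 5 to 5. In the null comparison 0 were called, except 1 without null replicate 4, so that leaving out arrays gave 0 to 1. The captured comparison was the least stable: 3 members were called in the main setting, 1 with no filter, with quantile normalization, with median centring and in a single fit of all arrays, 5 with array weights, and 1 to 4 on leaving out arrays. The cause was not tested. Over the 8 member calls, 119 of 142 alternative values kept direction and threshold, 23 lost the threshold and 0 reversed. Directions turned as follows, 5 of them for genes called in the main setting (Ctnnb1, Bcl9 and Tcf7l1 in the captured comparison, Gsk3b and Scrib in the bud comparison). Wnt5a in the bud comparison was -0.0389 with quantile normalization, -0.0397 at its second brightest probe set and -0.23 to 0.42 without single arrays, and Wnt5b was 0.11 at its second probe set. In the null comparison Wnt9b was 0.0434 with quantile normalization, 0.0820 with median centring and -0.86 to 0.41 without single arrays; Ret was 0.17 and Wls 0.12 at the second probe set, and without single arrays Ret was -1.14 to 0.0473 and Gdnf -0.0169 to 0.77. In the captured comparison quantile normalization gave Wnt7b -0.0939, Ctnnb1 -0.0711, Fzd8 -0.27 and Porcn -0.00774, median centring gave Fzd8 -0.12, and array weights gave Wnt5a 0.26 and Lef1 0.23. The second probe set there gave Wnt5a 0.18, Bcl9 -0.86, Tcf7l1 0.15 and Wls -0.19, and single arrays left out gave Wnt5a -0.48 to 0.28, Wnt7b -0.0812 to 0.44, Fzd8 -0.0735 to 0.25 and Lef1 -0.25 to 0.24. Against captured arrays, UB gave 0.53 for Gsk3b and -0.10 for Scrib. With the replicate block the null comparison had 0 members called, Wnt4 at 1.48 (limma adjusted p = 0.174), and 53 of all probe sets (23 higher, 30 lower), against 411 (138 higher, 273 lower) without it. Calls over all probe sets were 5701 in the bud comparison, 3982 to 7804 without single arrays, 3580 in a single fit and 10132 with array weights. In the null comparison the 411 became 60 to 1809 without single arrays, 1793 in a single fit, 1654 with array weights, 256 with no filter and 215 with no intensity trend. In the captured comparison 5866 became 2811 in a single fit and 3384 without hand-dissected replicate 7. The median log2 difference of all probe sets was 0.02 in the bud, -0.15 in the null and 0.11 in the captured comparison. Centring each array on its median turned the calls over all probe sets to 4015 higher and 2204 lower in the bud comparison, against 2952 and 2749, to 136 and 71 in the null comparison, and to 2435 and 3207 in the captured one, against 3857 and 2009. Signals near background limit Wnt2b, and Wnt4, Rspo1, Rspo3, Lgr6 and Frzb in UB. They also limit Sostdc1, Rnf43, Lgr5 and Wnt10a in hand-dissected MM and the untested probe sets.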

Other observations

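Among the other Wnt genes, Wnt7a, known as a ligand of the Müllerian duct epithelium and of the nervous system, had 1883.5, 37.4, 4.1, 3875 and 1896 on null captures 1 to 5 at 1 of its 3 probe sets, against 8.6, 71.3, 8.2 and 13.5 on the wild-type captures. At that probe set the values were high on 3 null arrays and low on 2, so the groups overlapped. The probe set with its highest mean log2 value did not show this, at 272.5, 142.4, 89.2, 151.1 and 91.0 on null captures and 145.5, 203.3, 151.0 and 124.6 on wild-type captures. The remaining one was at 71.6 or less on all 16 arrays. On those 3 arrays, replicates 1, 4 and 5, the neuronal marker sums were 16571, 27482 and 2582 and the gonad and coelomic sums were 504, 466 and 28824. On null replicates 2 and 3, where it was low, the neuronal sums were 6393.5 and 2930.1 and the gonad and coelomic sums 189.1 and 438.3. The part of these markers in the Wnt7a values was not tested. This gene was chosen after its values were seen. Wnt9a had 996, 333, 666, 459.9 and 1055 on null captures, against 145, 524, 513 and 282 on wild-type captures, and Wnt2 had 899, 117, 64.7, 455 and 102 against 64.9, 249, 211 and 322. Both overlapped between the groups, and both were also chosen after their values were seen.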
